A study of Mus musculus with 2 samples.

Results

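Axon guidance genes encode the ligands and receptors that steer growing nerve fibres, and 4 such systems were examined in cells of healing mouse skin: semaphorins with plexins and neuropilins, ephrins with Eph receptors, Slits with Robo receptors, and netrins with Dcc and Unc5 receptors. Members were chosen by gene symbol, from gene families picked with earlier results of these data known, and 68 of the 19938 genes with a probe set of their own were members. They comprised 34 ligand genes and 34 receptor genes. Ephb2 and the antisense RNA gene Plxna4os1 also fit the choice by symbol but had no probe set naming them alone, and they were not analysed here. Unc5cl was kept because its symbol fits, although it encodes a relative of the Unc5 receptors that is not known as a netrin receptor.

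Messenger RNA was measured on 2 arrays. The first held RNA of B-Gal positive cells and the second RNA of B-Gal negative cells, both from skin scar tissue of TCF reporter mice, 1 week after wounding. The reporter is read here as a transgene whose product, beta-galactosidase, marks cells with active TCF factors, the nuclear partners of beta-catenin. The sources used here give neither the promoter of the transgene, nor how cells were separated, nor how many mice lie behind each array. With 1 array per group there were no replicates, so no value has an error, no difference was tested, and the number of arrays limits the precision.

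All 4 systems are used outside the nervous system. Secreted class 3 semaphorins bind neuropilins, which signal through plexins, whereas membrane-bound semaphorins bind plexins directly; plexins act on small GTPases and thereby on the actin cytoskeleton and on adhesion. Ephrins are held on the cell surface and signal by contact, in both directions, with Eph receptor tyrosine kinases. In skin and other tissues these ligands and receptors take part in the growth of vessels and nerves, in the sorting of cells into compartments and in the movement of leukocytes.

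The comparison asked how guidance genes of B-Gal positive wound cells differed from those of B-Gal negative ones. Among members that differed by 2-fold or more, 16 ligands, 4 Eph receptors, 3 Robo receptors and 2 Unc5 receptors were lower in B-Gal positive cells, whereas both neuropilins, 3 plexins and 2 class 4 semaphorins were higher. A difference subtracts the B-Gal negative log2 value from the B-Gal positive one, and a gene was counted at 2-fold or more, a difference of 1 on the log2 scale. Of the 68 members, 7 (10.3%) were higher in B-Gal positive cells by 2-fold or more, beside 7.23% of all genes, and 25 (36.8%) were lower by as much, beside 9.08% of all genes. The median difference was -0.40 over all 68 members and 0.12 over all genes. At 4-fold or more, 1 member (1.47%) was higher and 15 (22.1%) were lower, beside 2.1% and 3.98% of all genes. With low values raised to the floor defined next, 14 were lower, without Robo2. The share of higher members was thus near that of all genes at both thresholds, whereas the share of lower members was larger.

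A gene was called expressed when at least 1 array exceeded 5.59 on the log2 scale, a floor set from olfactory and vomeronasal receptor genes. Of the 68 members, 60 were expressed, and the other 8 lay at or under the floor on both arrays: Dcc, Efna3, Epha5, Epha6, Ephb1, Robo3, Unc5a and Unc5cl. Among expressed members the 2-fold counts were again 7 higher and 25 lower, where 9.92% and 12.7% of all 13784 expressed genes were called, and a gene that passes the floor only on the array where it is high is bound to differ. All 7 higher members exceeded the floor on both arrays. Of the 25 lower members, 14 did so. The other 11 lay under the floor in B-Gal positive cells, and for these 11 a fold is given as at least the fold against the floor. Of the 14, Slit3, Sema4c, Sema6d and Sema7a alone also exceeded 6.27 in B-Gal positive cells, the 99th percentile of the receptor genes. The folds of the rest of the 14 depend on B-Gal positive values close to the floor and are uncertain.

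**Figure D1:**
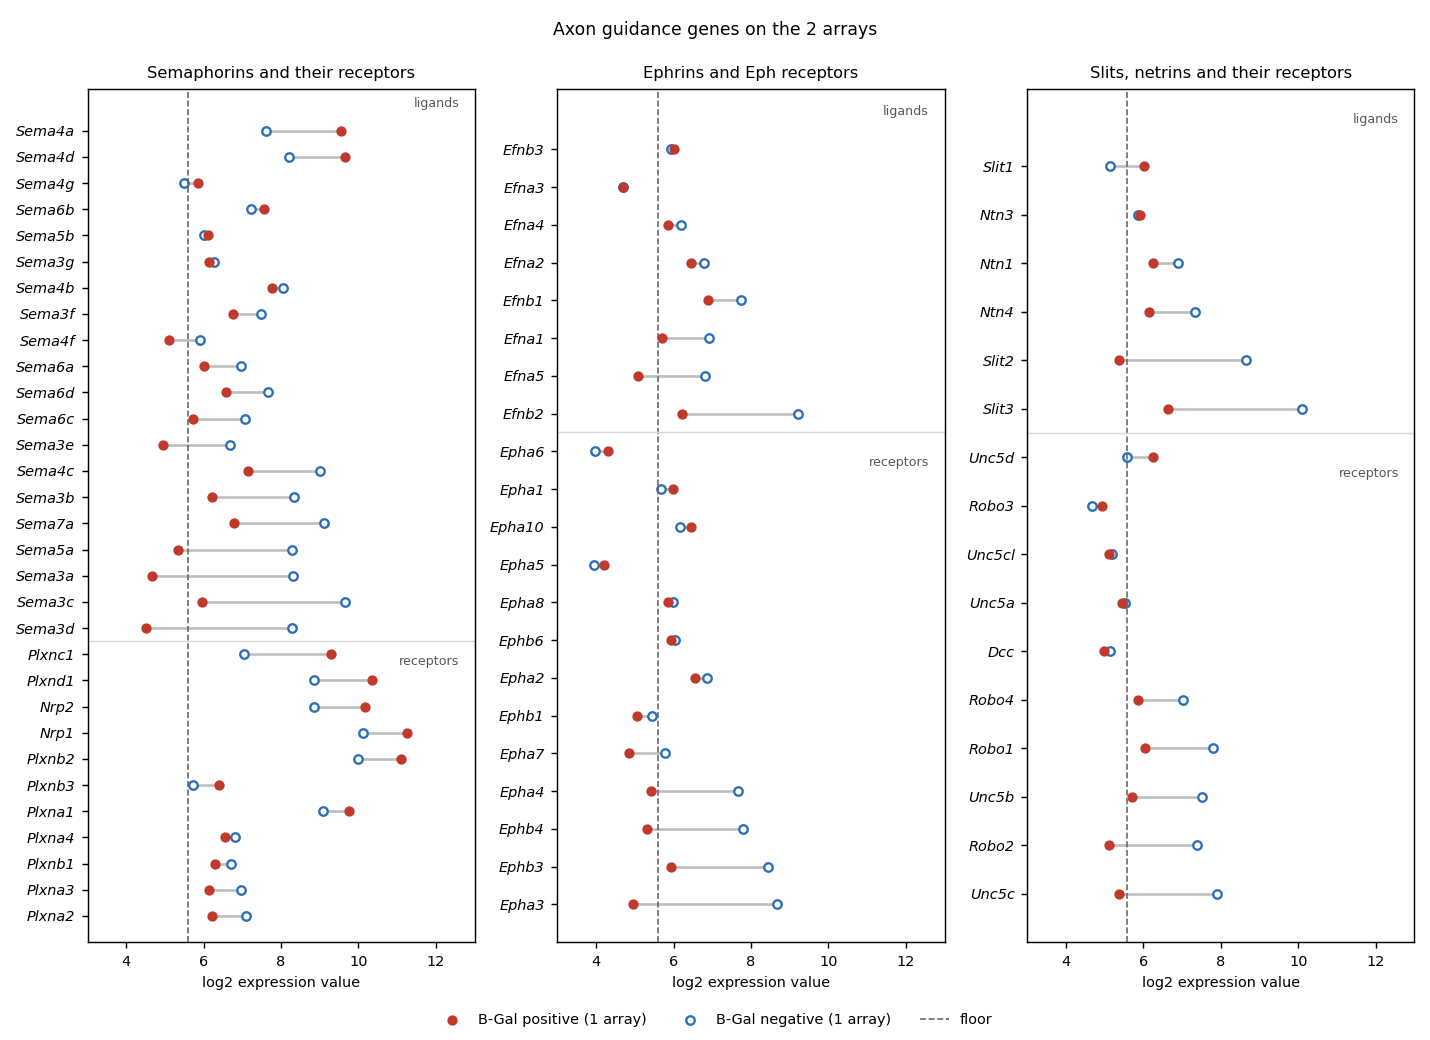
Log2 expression value (horizontal axis) of each of the 68 members in B-Gal positive cells (filled red circles) and B-Gal negative cells (open blue circles), 1 array each, with ligands above receptors and genes ordered by difference; the dashed line is the floor of 5.59. Values of different genes come from different probes and are not comparable as levels. Filled circles lie to the right for Sema4a, Sema4d, Plxnc1, Plxnd1, Nrp1, Nrp2 and Plxnb2, and to the left for most other genes with long connecting lines.

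Markers of several cell types differed between the arrays. All 10 macrophage markers were higher by 2-fold or more in B-Gal positive cells, with a median difference of 3.41 and summed linear values of 43899 in B-Gal positive and 4010 in B-Gal negative cells, among them Mrc1 (5.60 on the log2 scale) and Cd163, which was at least 30.9-fold higher. All 10 fibroblast markers were at least 2-fold lower, led by Pdgfra and Dpt (-4.32 and -4.28), with sums of 15341 in B-Gal positive and 84078 in B-Gal negative cells. Pericyte markers were lower for 7 of 8 (sums 676 in B-Gal positive and 6223 in B-Gal negative cells), blood endothelial markers for 7 of 10 (889 and 2657) and mast cell markers for 6 of 6 (268 and 2585), and among the endothelial ones Tek and Ramp2 had the largest differences (-2.75 and -2.43). Keratinocyte markers were lower for 2 of 10, and of 10 Schwann cell and nerve markers with a probe set, 2 were lower, Ncam1 (-3.45) and Tubb3 (at least 2.45-fold lower), while S100b, Gfap, Snap25 and Nefl lay under the floor on both arrays and the Schwann cell factor Sox10 had 6.47 in B-Gal positive and 6.36 in B-Gal negative cells. T and NK cell markers were lower for 3 of 8 and higher for 1 (Cd4), neutrophil markers lower for 3 of 6, B cell markers higher for 1 of 3 with a probe set, and lymphatic endothelial markers higher for 1 of 4, Lyve1, which macrophages can also express. No macrophage marker lay under the floor in B-Gal positive cells and 1, Cd163, did in cells labelled B-Gal negative. No fibroblast marker lay under it on either array. The part of these cell types in the differences of guidance genes was not tested, and in such bulk RNA fewer cells of a type and less RNA per cell cannot be told apart.

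Secreted class 3 semaphorins, which act on vessels and nerves at a distance from the cell that makes them, were lower in B-Gal positive cells for all 7 genes, by at least 2-fold for 5. By comparison, 9.08% of all genes were lower by 2-fold or more. Sema3d had 4.50 on the log2 scale in B-Gal positive and 8.27 in B-Gal negative cells, and was at least 6.44-fold lower. Sema3a, the classical repellent of sensory axons, had 4.67 in B-Gal positive and 8.32 in B-Gal negative cells, and was at least 6.65-fold lower. Sema3c, known for guiding neural crest cells in the developing heart, had 5.95 in B-Gal positive and 9.64 in B-Gal negative cells, and was 12.9-fold lower. Of these 3 genes Sema3c alone exceeded the floor on both arrays, and the differences of the other 2 are known as bounds only. Sema3b had 6.21 in B-Gal positive and 8.34 in B-Gal negative cells (4.38-fold lower). Sema3e, which binds plexin D1 without a neuropilin, had 4.94 in B-Gal positive and 6.68 in B-Gal negative cells (at least 2.13-fold lower). Sema3f and Sema3g differed by less, at -0.74 and -0.11.

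Sema3d and Sema3a are adjacent protein-coding genes on chromosome 5, in the gene order of RefSeq's mouse assembly GRCm38.p6, and 3 genes lie between Sema3a and Sema3e. The 250 bases before the start of Sema3d, Sema3a and Sema3c are shown because these genes were lower together, Sema3d and Sema3a as neighbours; they were read from RefSeq's GRCm38.p6 in the gene's direction, and capitals would mark CTTTGA (the core of TCF and LEF sites), GAGGAA (a core of PU.1 and other ETS sites) or TGANTCA (AP-1) on either strand.
Sema3d, chr5:12382916-12383165, plus strand: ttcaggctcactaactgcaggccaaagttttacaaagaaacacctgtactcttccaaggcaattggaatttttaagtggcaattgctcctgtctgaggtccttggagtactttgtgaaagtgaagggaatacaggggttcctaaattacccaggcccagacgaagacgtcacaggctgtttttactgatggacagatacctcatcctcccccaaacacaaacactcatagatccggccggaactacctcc
Sema3a, chr5:13396534-13396783, plus strand: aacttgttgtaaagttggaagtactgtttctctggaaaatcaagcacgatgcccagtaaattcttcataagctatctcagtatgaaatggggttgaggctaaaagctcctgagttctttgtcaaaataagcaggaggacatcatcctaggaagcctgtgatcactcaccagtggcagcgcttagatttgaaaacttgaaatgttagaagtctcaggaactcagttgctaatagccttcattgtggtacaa
Sema3c, chr5:17574566-17574815, plus strand: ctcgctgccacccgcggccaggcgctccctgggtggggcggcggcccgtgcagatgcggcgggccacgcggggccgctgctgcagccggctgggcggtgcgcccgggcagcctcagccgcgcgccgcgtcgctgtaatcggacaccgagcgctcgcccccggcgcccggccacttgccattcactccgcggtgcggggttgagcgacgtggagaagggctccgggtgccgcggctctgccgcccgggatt
None of the 3 windows held any of these letters. The Sema3d and Sema3a windows had 4 and 2 CpG dinucleotides and the Sema3c window had 39, so the 3 windows differed in base composition. Whether base composition bears on the differences was not tested.

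Membrane-bound semaphorins differed in both directions. Sema4a, which costimulates T cells, had 9.54 in B-Gal positive and 7.60 in B-Gal negative cells, and was 3.82-fold higher. Sema4d, known as CD100 on leukocytes, had 9.66 in B-Gal positive and 8.20 in B-Gal negative cells, and was 2.76-fold higher. A second Sema4d probe set of lower signal had 6.67 in B-Gal positive and 6.19 in B-Gal negative cells, a difference of 0.48, and with the mean of both probe sets Sema4d differed by 0.97 and fell short of 2-fold. Among the ligands these 2 genes alone were at least 2-fold higher.

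The other membrane-bound semaphorins that passed the threshold were lower. Sema7a, a lipid-anchored ligand of plexin C1 and of beta1 integrins, had 6.77 in B-Gal positive and 9.11 in B-Gal negative cells (5.07-fold lower). Sema4c, a ligand of plexin B2, had 7.14 in B-Gal positive and 9.01 in B-Gal negative cells (3.66-fold lower). Sema5a, which carries thrombospondin repeats, had 5.33 in B-Gal positive and 8.28 in B-Gal negative cells (at least 6.46-fold lower). Thus Sema4c differed in the opposite direction to Sema4a and Sema4d of its own class. Sema6c had 5.71 in B-Gal positive and 7.07 in B-Gal negative cells (2.57-fold lower), and Sema6d, a ligand of plexin A1, had 6.58 in B-Gal positive and 7.67 in B-Gal negative cells (2.13-fold lower). Sema6d was the lower member closest to the threshold (-1.09), and Sema6a (-0.95) lay just outside it. The 8 semaphorins under 2-fold ran from -0.95 to 0.35; Sema6b had 2 probe sets with identical values.

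Of 11 semaphorin receptors, all expressed, 5 were at least 2-fold higher, 0 were lower by that much, and the other 6 ran from -0.88 to 0.67. By comparison, 7.23% of all genes were higher and 9.08% lower by 2-fold or more. Plxnc1, the receptor of Sema7a, had 9.28 in B-Gal positive and 7.04 in B-Gal negative cells and was 4.72-fold higher, the single member above 4-fold on this side. Plxnd1, a receptor of Sema3e known best from endothelium, had 10.35 in B-Gal positive and 8.84 in B-Gal negative cells (2.84-fold higher). Plxnb2, a receptor of class 4 semaphorins, had 11.09 in B-Gal positive and 10.00 in B-Gal negative cells (2.13-fold higher). Of the neuropilins, which also bind VEGF, Nrp2 had 10.17 in B-Gal positive and 8.84 in B-Gal negative cells (2.51-fold higher). Nrp1 had 11.25 in B-Gal positive and 10.11 in B-Gal negative cells (2.19-fold higher). Plxnb2 (1.09) and Nrp1 (1.13) lay closest inside the threshold. Among plexins of class A, the signalling partners of neuropilins, Plxna1 differed by 0.66, Plxna2 by -0.88, Plxna3 by -0.84 and Plxna4 by -0.24, and Plxnb1 and Plxnb3 differed by -0.40 and 0.67.

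The same 250-base windows of Plxnc1 and Plxnd1, the plexins with the largest positive differences, are shown because each held GAGGAA at 2 places, in capitals.
Plxnc1, chr10:94944846-94945095, minus strand: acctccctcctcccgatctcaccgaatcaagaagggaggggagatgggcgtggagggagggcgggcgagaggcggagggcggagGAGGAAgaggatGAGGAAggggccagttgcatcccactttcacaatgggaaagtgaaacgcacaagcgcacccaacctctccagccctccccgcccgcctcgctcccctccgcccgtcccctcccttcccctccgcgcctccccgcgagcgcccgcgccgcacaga
Plxnd1, chr6:115995006-115995255, minus strand: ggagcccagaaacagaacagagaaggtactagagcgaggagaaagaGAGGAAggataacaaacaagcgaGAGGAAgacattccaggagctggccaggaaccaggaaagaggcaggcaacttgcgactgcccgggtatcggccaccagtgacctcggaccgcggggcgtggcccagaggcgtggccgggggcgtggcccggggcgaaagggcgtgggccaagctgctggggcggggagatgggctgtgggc
Windows were given for 58 of the 68 members. GAGGAA at 2 places in a window was also found for the lower genes Efna1 and Robo2, the higher gene Sema4a, and Sema4f, under 2-fold. The higher plexin gene Plxnb2 held none. GAGGAA was found for 4 of the 7 higher genes (57.1%), 5 of 24 lower genes (20.8%) and 4 of 7 genes under the floor (57.1%), beside 25.9% of 27025 genes with a window; genes with several windows have more chances to hold it. By window the shares were 38.5% of 13 windows of higher genes, 16.7% of 30 windows of lower genes, 30.4% of 23 windows of expressed genes under 2-fold, 50% of 8 windows of genes under the floor and 23.3% of all windows, so the share in higher genes was not above that in genes under the floor. CTTTGA was found for 4 of the 58 genes (6.90%), Nrp2, Epha2, Robo4 and Sema3e, beside 15.8% of all genes, and TGANTCA for 3 (5.17%), Sema4c, Sema4d and Sema6b, beside 7.82%. Member windows were richer in G and C than all windows (medians 64.4% and 52.4%). A match of letters is no evidence of binding.

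**Figure D2:**
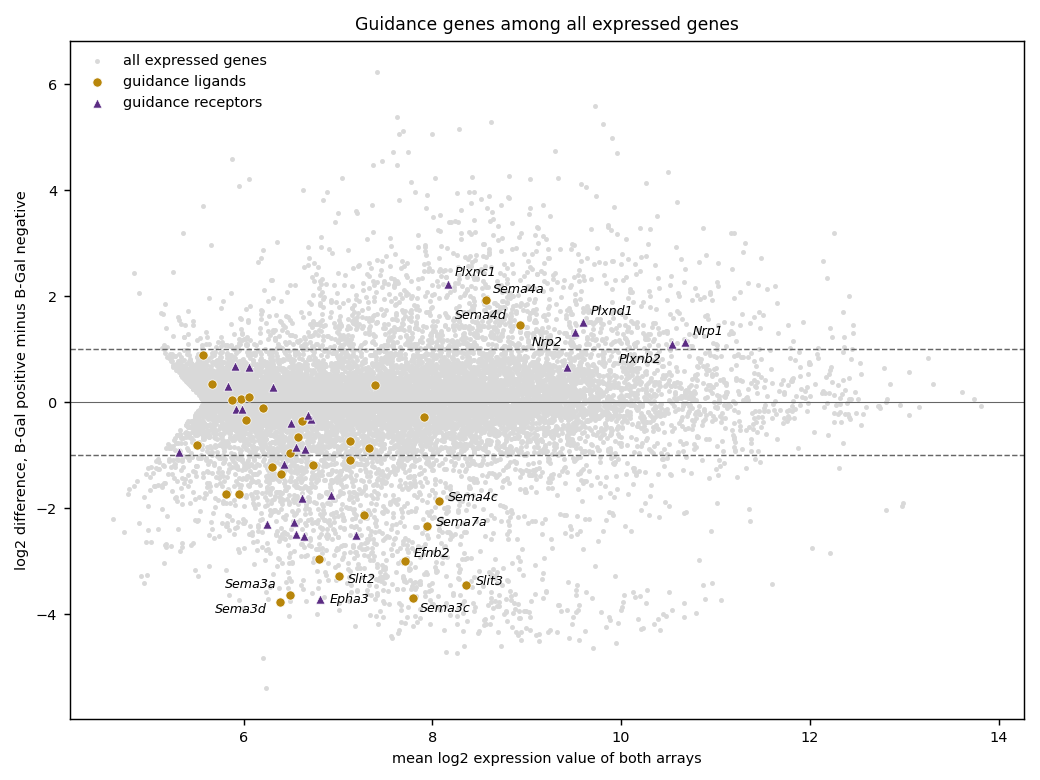
Log2 difference, B-Gal positive minus B-Gal negative (vertical axis), against the mean log2 value of both arrays (horizontal axis) for expressed genes: grey points are all 13784 genes, circles the guidance ligands and triangles the guidance receptors, and dashed lines mark 2-fold. The higher members with labels are 5 semaphorin receptors, Sema4a and Sema4d, and the labelled members below -3 include Sema3c and Slit3; points of genes under the floor on 1 array, such as Sema3d, Sema3a and Epha3, show deposited values.

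Ephrins and Eph receptors had 0 members at least 2-fold higher on the B-Gal positive array, and 7 of 21 were lower by that much. Of all genes, 7.23% were higher and 9.08% lower by 2-fold or more, so 0 higher of 21 is near the share of all genes. Among ligands, Efnb2, an ephrin of arteries that binds Ephb4, had 6.21 in B-Gal positive and 9.21 in B-Gal negative cells and was 7.98-fold lower. Efna5 had 5.08 in B-Gal positive and 6.82 in B-Gal negative cells (at least 2.35-fold lower). Efna1, a ligand of Epha2, had 5.69 in B-Gal positive and 6.91 in B-Gal negative cells (2.32-fold lower). Efnb1 fell short of the threshold at -0.86, and Efna2, Efna4 and Efnb3 differed by -0.35, -0.33 and 0.06. Efna1, Efna3 and Efna4 are adjacent genes on chromosome 3, of which Efna1 alone passed the threshold.

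Among Eph receptors, Epha3 had 4.95 in B-Gal positive and 8.67 in B-Gal negative cells and was at least 8.50-fold lower. Ephb3 had 5.94 in B-Gal positive and 8.44 in B-Gal negative cells (5.66-fold lower). Ephb4, the Eph receptor of veins, had 5.32 in B-Gal positive and 7.80 in B-Gal negative cells (at least 4.65-fold lower). Epha4, which binds ephrins of both classes, had 5.40 in B-Gal positive and 7.67 in B-Gal negative cells (at least 4.25-fold lower). Thus 3 of these 4 receptors were under the floor in B-Gal positive cells and Ephb3 was just above it. The other 6 expressed Eph receptors ran from -0.94 (Epha7) to 0.30 (Epha1); Epha7 was nearest to the threshold, but with 4.85 in B-Gal positive cells it did not reach the floor and was at least 1.15-fold lower, and the epithelial receptor gene Epha2 differed by -0.32.

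In the Slit system, 5 of 7 genes were at least 2-fold lower in B-Gal positive cells and 0 higher, beside 9.08% and 7.23% of all genes. With 7 genes, 0 higher is near the share of all genes. Slit3 had 6.63 in B-Gal positive and 10.09 in B-Gal negative cells and was 10.9-fold lower. Slit2, a repellent of axons and of some migrating leukocytes, had 5.37 in B-Gal positive and 8.65 in B-Gal negative cells (at least 8.39-fold lower). Slit2 was under the floor and Slit3 above it in B-Gal positive cells. Their receptor gene Robo1 had 6.05 in B-Gal positive and 7.80 in B-Gal negative cells (3.37-fold lower), and its neighbour on chromosome 16, Robo2, had 5.10 in B-Gal positive and 7.40 in B-Gal negative cells (at least 3.50-fold lower). Robo4, the Robo gene of endothelium, had 5.85 in B-Gal positive and 7.01 in B-Gal negative cells (2.24-fold lower); its neighbour Robo3 was under the floor on both arrays. Slit1 had 6.01 in B-Gal positive cells and, on the B-Gal negative array, 5.13, under the floor; its difference of 0.88 was the nearest outside the threshold on the higher side, but against the floor it was at least 1.34-fold higher.

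Netrins and their receptors included 3 genes at least 2-fold lower in B-Gal positive cells out of 9, and 0 higher, beside 9.08% and 7.23% of all genes. With 9 genes, 0 higher is near the share of all genes. Unc5c had 5.38 in B-Gal positive and 7.91 in B-Gal negative cells (at least 5.01-fold lower). Unc5b, a netrin receptor of axons and endothelium, had 5.71 in B-Gal positive and 7.52 in B-Gal negative cells (3.50-fold lower). Ntn4, a netrin of basement membranes, had 6.14 in B-Gal positive and 7.33 in B-Gal negative cells (2.29-fold lower). In B-Gal positive cells Unc5c was under the floor and Unc5b just above it. Ntn1 and Ntn3 differed by -0.66 and 0.05, and Unc5d by 0.68, with 6.25 in B-Gal positive and 5.56 in B-Gal negative cells, the second just under the floor.

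Ligands were set beside a receptor each is known to bind, in 33 pairs drawn up with these values known. Among 9 pairs of a class 3 semaphorin with Nrp1, Nrp2 or Plxnd1, the ligand was at least 2-fold lower and the receptor at least 2-fold higher in 7, and in the other 2 the ligand was under the threshold. As these receptors were all higher, each lower ligand was bound to count as opposite. Class A plexins, under the threshold, were not in these 9 pairs. The same opposite arrangement was found for Sema7a with Plxnc1 (-2.34 and 2.24) and for Sema4c with Plxnb2 (-1.87 and 1.09). In 3 pairs, Sema4a with Plxnd1 or Plxnb2 and Sema4d with Plxnb2, both partners were higher. Ligand and receptor were both lower in 5 of 7 ephrin pairs and in 4 of 4 Slit pairs. The Slit pairs were made of Slit2, Slit3, Robo1 and Robo2 alone, each of them lower, and Slit1 (0.88) was in no pair. Each pair made of 2 lower genes, among ephrins as among Slits, was thus bound to count as both lower. In the 3 netrin pairs the ligand, Ntn1, was under the threshold. Over all 33 pairs, both partners passed the threshold in 21, in opposite directions in 9 and in the same direction in 12. The pairs share genes and are not independent, and whether the systems differ was not tested.

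**Figure D3:**
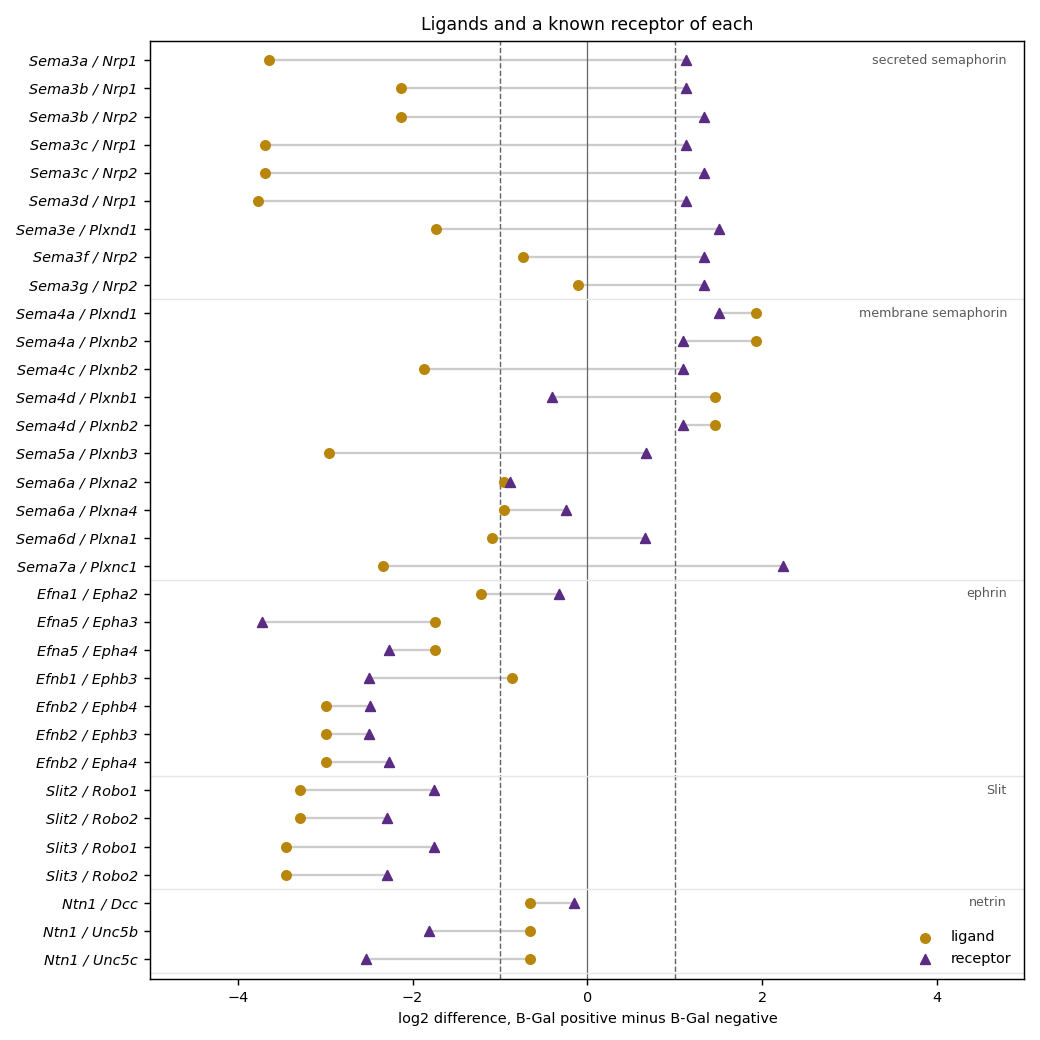
Log2 difference, B-Gal positive minus B-Gal negative (horizontal axis), of a ligand (circle) and of a receptor it is known to bind (triangle), a row per pair; dashed lines mark 2-fold. In the 9 secreted semaphorin pairs the triangles, which stand for Nrp1, Nrp2 and Plxnd1 alone, lie above 1 and the circles below 0. In the Slit pairs, made of Slit2, Slit3, Robo1 and Robo2 alone, both lie below -1.

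Genes that act with these ligands and receptors also differed in both directions. Of 30 other cues, receptors, co-receptors and shedding proteases, 24 were expressed. Of these, 6 were higher in B-Gal positive cells by 2-fold or more and 10 lower by as much. These were 25% and 41.7% of the 24, beside 9.92% and 12.7% of all expressed genes. The lower gene Chl1 passed the floor only on the B-Gal negative array. Over all 29 with a probe set, 6 were again higher and 10 lower, beside 7.23% and 9.08% of all genes. The median was -0.64 over the expressed genes and -0.28 over the 29. Trem2 had 10.29 in B-Gal positive and 6.53 in B-Gal negative cells (13.5-fold higher) and its adaptor Tyrobp had 11.25 in B-Gal positive and 8.58 in B-Gal negative cells (6.33-fold higher); both are known to work with plexin A1 in the response to Sema6d. Cd72, a lymphocyte receptor of Sema4d, had 9.57 in B-Gal positive and 6.62 in B-Gal negative cells (7.72-fold higher). The shedding protease gene Adam17 was 2.28-fold higher, while of the other shedding protease genes Mmp14 was 2.38-fold lower and Adam10 differed by 0.59. Met, a kinase partner of class B plexins, was 2.27-fold higher, and Flrt3, a membrane protein that binds Unc5 receptors, 2.02-fold higher. Of the lower genes, Chl1, an adhesion molecule that aids Sema3a signalling, was at least 7.52-fold lower. Neo1, a receptor of netrins and of repulsive guidance molecules, was 12.5-fold lower, and its ligand gene Rgma 3.69-fold lower. Ryk, a receptor of Wnt proteins in axon guidance, was 14.8-fold lower, and Flrt2, another Unc5 partner, 5.50-fold lower. Itga1, which encodes the integrin partner of beta1 in binding Sema7a, was 5.10-fold lower, Gpc1, a heparan sulphate proteoglycan that binds Slits, 3.14-fold lower, and Kdr, the VEGF receptor that works with neuropilins, 2.96-fold lower.

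Of 56 cytoplasmic effectors of guidance receptors, 47 were expressed, 6 at least 2-fold higher and 10 lower in B-Gal positive cells. These were 12.8% and 21.3% of the 47, beside 9.92% and 12.7% of all expressed genes. The lower genes Farp1, Srgap1 and Pak3 passed the floor only on the B-Gal negative array. Over all 51 with a probe set, 6 were higher and 11 lower, beside 7.23% and 9.08% of all genes. The median was -0.10 over the expressed genes and -0.17 over the 51. The higher ones were Vav3 (4.34-fold) and Vav2 (2.34-fold), activators of Rac that Eph receptors recruit, the kinase gene Fes (3.05-fold), the Slit-Robo GTPase-activating protein gene Srgap2 (2.86-fold), the Rac activator gene Tiam1 (2.48-fold) and Evl (2.45-fold), of the Ena/VASP actin regulators. Members of the same small families lay on the opposite side: Srgap1 was at least 5.08-fold lower and Enah 9.73-fold lower, while Vasp differed by 0.40. Also lower were Farp1 (at least 9.68-fold), Dpysl3, a collapsin response mediator (9.64-fold), Mical2, an oxidase of actin (4.23-fold), Rnd1, a small GTPase that binds plexins (4.13-fold), the actin-binding gene Ablim1 (3.14-fold) and the kinase gene Pak3 (at least 2.06-fold). Dpysl2, the best known mediator of Sema3a collapse signals, differed by 0.15.

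**Figure D4:**
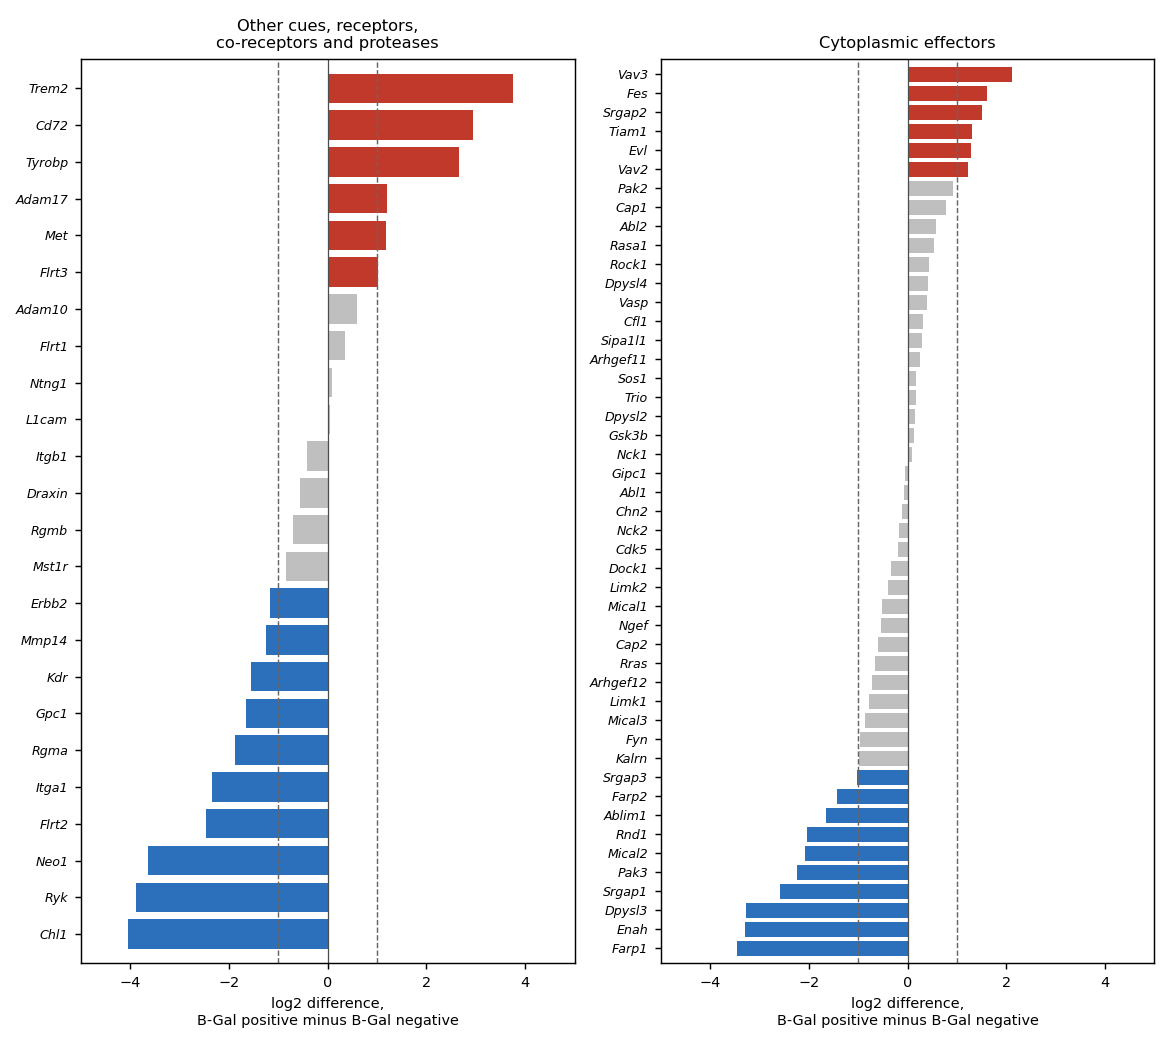
Log2 difference, B-Gal positive minus B-Gal negative (horizontal axis), of the expressed genes of both lists, ordered by difference; red bars are at least 2-fold higher, blue bars at least 2-fold lower and dashed lines mark that threshold. Trem2, Cd72 and Tyrobp lead the left panel and Vav3 the right, and bars of genes under the floor in B-Gal positive cells, such as Chl1 and Farp1, show deposited values and cannot be ranked by length.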

How the data were processed

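The authors deposited 1 log2 expression value per probe set for each of 2 Affymetrix mouse arrays. Partek is the software named per the submitters' processing notes; the summarization, normalization, log base and genome build it used are not given in these sources. The scale was read as log2 from the range of the values (1.16 to 14.8), and all folds depend on that. Array medians were 6.16 for B-Gal positive and 6.18 for B-Gal negative, and no scaling was added.

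Of 28853 probe sets, 21789 named 1 gene, 1621 several and 5443 were unlisted in the platform annotation; RefSeq GRCm38.p6 matched 21698 by gene ID and changed 0 symbols. For genes with several probe sets, the one with the highest mean was used. No probe set naming several genes named a member. The floor is the 95th percentile of 1194 olfactory and vomeronasal receptor genes, of which 2.68% differed at least 2-fold, 27 higher and 5 lower. Their median difference was 0.28, and 85 exceeded the floor in B-Gal positive and 35 in B-Gal negative cells. These receptor genes thus leaned towards B-Gal positive. Small positive differences near the floor, such as those of Slit1 (0.88) and Unc5d (0.68), are to be read beside that lean. No p-value was computed, as each group has 1 array.

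Members, gene lists and pairs were chosen with earlier results of these data known. Named are the members, up to 8 genes per direction of each of 2 partner lists (others by count) and up to 2 per marker list. Dpysl2, Vasp, Mmp14, Adam10, S100b, Gfap, Snap25, Nefl, Sox10 and 1 further T cell marker, Cd4, were added after their values were seen. Alternatives covered array scaling, an offset of 32, the floor, probe set choice and thresholds of 1.5-fold and 4-fold. Scripts used Python 3.11.15, pandas 2.3.3, statsmodels 0.14.6 (loess, span 0.4, 3 iterations) and matplotlib 3.10.9.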

Additional observations from a re-analysis of the deposited data

How the results depend on the processing

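The counts of 7 members at least 2-fold higher and 25 lower in B-Gal positive cells stayed within 1.5 times under each alternative at the 2-fold threshold, as did the counts of the partner and effector lists. At 1.5-fold, 11 were higher and 33 lower. These were 18.3% and 55% of the expressed members, beside 18.8% and 20.1% of all expressed genes, so the higher share was near that of all. At 4-fold, 1 was higher and 15 lower, or 1.67% and 25%, beside 3.01% and 5.72% of all expressed genes. The median difference of expressed members, -0.82, was -0.56 with an offset of 32 on the linear scale, -0.40 without the filter on low values, -1.16 with a stricter floor (the 99th percentile of receptor genes, or the median of all genes), and -0.70 with low values raised to the floor. These filters change which members enter. Over all genes that entered each setting, the median was 0.06 as reported, 0.05 with the offset and 0.11 without the filter. It was 0.03 with either stricter floor and 0.05 with low values raised to the floor. The median of all genes was -0.02 after the loess fit and 0.12 as deposited; after it 7 members were higher and 27 lower, with Epha7 (-1.15) and Sema6a (-1.03) added, and quantile normalization added Epha7 (-1.07), which was -0.52 with the offset and -0.20 with low values raised to the floor. With the offset, Efna1, Ntn4, Robo4, Sema6c and Sema6d fell short of 2-fold (-0.86, -0.91, -0.84, -0.98 and -0.89). Sema4d fell short with the mean over its probe sets (0.97) or, in an alternative chosen after seeing the data, with the one of lower signal (0.48). Signs were compared in the 9 alternatives at the 2-fold threshold other than that last one. The filter and floor settings and the offset could not reverse a sign. Median centring moved all differences by the same small amount, and the mean over probe sets could alter only members with several. After the loess fit and quantile normalization, and in the rest, none of the 32 members at least 2-fold different changed sign. Of the other expressed members, Ntn3, Efnb3 and Sema5b did after the loess fit (-0.10, -0.08 and -0.04). Ntn3 also did after quantile normalization (-0.01). No paired analysis was possible because each group has 1 array. Without replicates, the spread between samples is unknown. Folds against values under the floor of 5.59 are bounds, and folds against values just above it are uncertain.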

Other observations

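Efna3 had the same value, 4.69, on both arrays, and such identity was not rare. Of 28853 probe sets, 614 (2.13%) had values identical on both arrays to the last deposited digit, and 118 of these exceeded the floor of 5.59. By comparison, 15 probe sets differed by more than 0 and at most 0.001 on the log2 scale. The 614 identical pairs held 552 distinct values, the highest 12.98. The cause was not tested.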
